A study of Mus musculus with 24 samples.

Results

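The peaks described here are the AGO2 contacts that carry a seed match of the microRNA miR-26. A peak belonged to the set when its deposited sequence held a 7-nt match to the seed of mouse miR-26a-5p, either the complement of nt 2-8 or the complement of nt 2-7 followed by A, and no such site of miR-155. Of 14634 peaks in the table, 297 in 279 of its 4165 genes met this rule. A further 2 peaks, in Adam10 (47.5 wild-type and 0.718 knockout scaled reads) and Brwd3 (18.9 and 22.6), held a site of both microRNAs and were left out. The assay was HITS-CLIP, in which RNA fragments pulled down with Argonaute 2 (AGO2) are sequenced, here from activated CD4+ T cells of the strain C57BL/6. The cells, taken from spleen and lymph nodes, were cultured for 4 days with 1 µg/mL of antibody to CD3 and CD28 and 20 U/mL of IL-2. The groups were 12 libraries of wild-type (WT) cells and 12 of miR-155 knockout (miR-155 KO) cells, each labelled a biological replicate, with 6 libraries per genotype on each of the 3' linkers.

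The table gives 1 pooled value per genotype and peak, so no spread between libraries can be shown and no linker or replicate can be separated. Values are called scaled reads below; they are the authors' pooled reads on a scale that neither the labels nor the headers describe, and the depth of the single libraries is unknown. Over all peaks they summed to 371088 for wild type and 374126 for the knockout. Peaks were present on 7 of 8 T cell marker genes. None was listed under the 22 marker symbols of CD8 T and NK cells, B cells, myeloid cells, erythroid cells and platelets. Of these symbols, Adgre1 and Emr1 name the same gene.

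MicroRNAs guide Argonaute proteins to messenger RNAs, and the seed at the 5' end of the microRNA sets most of the target choice. The miR-26 family is broadly expressed, and its genes lie inside genes of small phosphatases that act on the C-terminal domain of RNA polymerase II. It is known for restraining proliferation and for targeting the Polycomb methyltransferase gene Ezh2. The knockout removes miR-155, which has another seed, while these peaks were chosen by the seed of a different family.

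The mature sequences, from RefSeq (GRCm38.p6), are shown because the capitals, nt 2-8, define the set.
miR-26a-5p: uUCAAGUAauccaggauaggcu
miR-26b-5p: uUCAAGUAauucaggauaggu
Both members share the seed, so a peak cannot be assigned to 1 of them. Counted from the 5' end, they differ by C11U and C21U (the base of miR-26a first) and by length, 22 and 21 nt. On GRCm38, Mir26a-1 lies on chromosome 9 (119031796 to 119031885) within Ctdspl, Mir26a-2 on chromosome 10 (126995530 to 126995613) within Ctdsp2, and Mir26b on chromosome 1 (74394310 to 74394394) within Ctdsp1.

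Among the 297 peaks, 105 held an 8mer (the match to nt 2-8 followed by A), 84 a 7mer-m8 (nt 2-8 only) and 108 a 7mer-A1 (nt 2-7 followed by A), each counted in its longest class. On the transcript strand the 8mer reads TACTTGAA, the 7mer-m8 TACTTGA and the 7mer-A1 ACTTGAA. The following sites are examples, not a ranking, and include well-read peaks of each class, genes with several sites and peaks with unequal genotypes. They were read from the deposited peak sequences and run 5' to 3' on the transcript, with the seed match in capitals; positions are exact matches on GRCm38, in the last exon of the gene in each case.
Zfp280b peak 8, 8mer, chr10:76041206-76041233 (+ strand): cactaatactgcttgggtctTACTTGAA
Tnrc6a peak 2, 8mer, chr7:123193086-123193112 (+ strand): acatatcagtttgaaTACTTGAAtcat
Tnrc6b peak 3, 8mer, chr15:80929702-80929725 (+ strand): tcactcttgaaaTACTTGAAtcat
Tnrc6c peak 3, 8mer, chr11:117761417-117761444 (+ strand): atatcaaacatgcaaaTACTTGAAccca
Irf4 peak 1, 7mer-A1, chr13:30763723-30763750 (+ strand): agaagtgagtgggtttccACTTGAAgac
Irf4 peak 3, 8mer, chr13:30763892-30763919 (+ strand): gtgttgtgtttacatgTACTTGAAtgct
Irf4 peak 9, 7mer-m8, chr13:30764241-30764268 (+ strand): ggactcttgttgccacaTACTTGAgcca
Prkcd peak 2, 8mer, chr14:30595624-30595651 (- strand): aaatcctgtgtttcatTACTTGAAtgta
Epc2 peak 2, 8mer, chr2:49550204-49550230 (+ strand): caatattatttctgtTACTTGAAtagt
Epc2 peak 3, 7mer-A1, chr2:49550243-49550265 (+ strand): tcatgcttttgcACTTGAAtttg
Ptpn22 peak 1, 8mer, chr3:103912078-103912105 (+ strand): tacctgcagataaagcTACTTGAAtact
Trp53inp1 peak 10, 7mer-m8, chr4:11170362-11170389 (+ strand): tatactttattgaccagTACTTGAtagc
Tnks2 peak 5, 7mer-A1, chr19:36891048-36891064 (+ strand): cagttaACTTGAAtctt
Tet3 peak 10, 7mer-A1, chr6:83366181-83366208 (- strand): cctagatttaaacagcaACTTGAAaaga
Tet3 peak 25, 8mer, chr6:83362799-83362826 (- strand): gtgaacttaacaaccaTACTTGAAtatt
Brwd1 peak 6, 7mer-A1, chr16:96001560-96001587 (- strand): gactttcatgtttataaACTTGAAttta
Fbxo11 peak 7, 8mer, chr17:87991509-87991526 (- strand): ttattgTACTTGAAtgtg
Wnk1 peak 5, 8mer, chr6:119925529-119925548 (- strand): aattactgTACTTGAAtact
Runs shorter than 28 bases begin where the deposited sequence begins, and that sequence continues past their last base. In Zfp280b the site closes the deposited sequence and reaches past the peak itself into the 6 nt added on each side, as did the sites of 45 of the 297 peaks; the other 252 sites lay wholly inside the peak.

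The most-read peaks of the set were in the zinc finger gene Zfp280b and the GW182 gene Tnrc6a. The site in Zfp280b reaches into the added flank, and the Tnrc6a peak also held a miR-23 site. Peak 8 of Zfp280b held 545 wild-type and 708 knockout scaled reads. Peak 2 of Tnrc6a, a GW182 scaffold that recruits deadenylases to Argonaute, held 562 and 498. These 2 peaks stood well above the rest of the set. Each was the most-read peak of its gene and carried 47.3% of the gene's reads in Zfp280b and 49% in Tnrc6a.

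The paralogs of Tnrc6a carried an 8mer in a peak too. Tnrc6b held 146 wild-type and 103 knockout scaled reads at peak 3, and Tnrc6c held 35.1 and 43.1 at its peak 3. Outside the 8mer, 21 of 39 aligned flanking bases were identical between the Tnrc6a and Tnrc6b sequences (53.8%), 24 of 46 between Tnrc6a and Tnrc6c (52.2%) and 18 of 39 between Tnrc6b and Tnrc6c (46.2%). These identities were not set against other pairs of peaks.

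The 8mers of Atad2b, Obfc2a, Zswim6 and Rest were also in the most-read peak of their gene, as were those of Prkcd and Tmcc1, given below. Atad2b, which encodes a bromodomain ATPase, held 240.3 wild-type and 199 knockout scaled reads at peak 9, 70.2% of the gene's reads. Obfc2a, a single-stranded DNA binding protein gene, held 195 and 218 at a peak starting 11 nt after the stop codon. Zswim6, a zinc finger gene, held 200.1 and 187. Rest, the repressor of neuronal genes, held 210.1 and 162 at peak 2, where the site reaches into the added flank. In Atad2b, Obfc2a, Zswim6 and Rest the genotypes lay close together, with wild type higher in 3 and the knockout in 1.

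Among the other most-read peaks, Irf4, a regulator of effector T cell differentiation, held 149 wild-type and 223 knockout scaled reads at peak 3. Trp53inp1, a p53-induced stress gene, held 161 and 127 at peak 10. 3110057O12Rik held 143 and 158. These peaks took 12.1% of the gene's reads in Irf4, 10.5% in Trp53inp1 and 34.9% in 3110057O12Rik. Zfp217, a zinc finger gene, held 94 and 104, and the membrane protein gene Tmcc1 held 87.9 and 101. The deubiquitinase gene Usp25 held 101 and 81.4. Prkcd, protein kinase C delta, and Epc2, a subunit of a histone acetyltransferase complex, had more reads in the knockout, with 57 and 133 at peak 2 of Prkcd and 65.8 and 105 at peak 2 of Epc2.

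**Figure D1:**
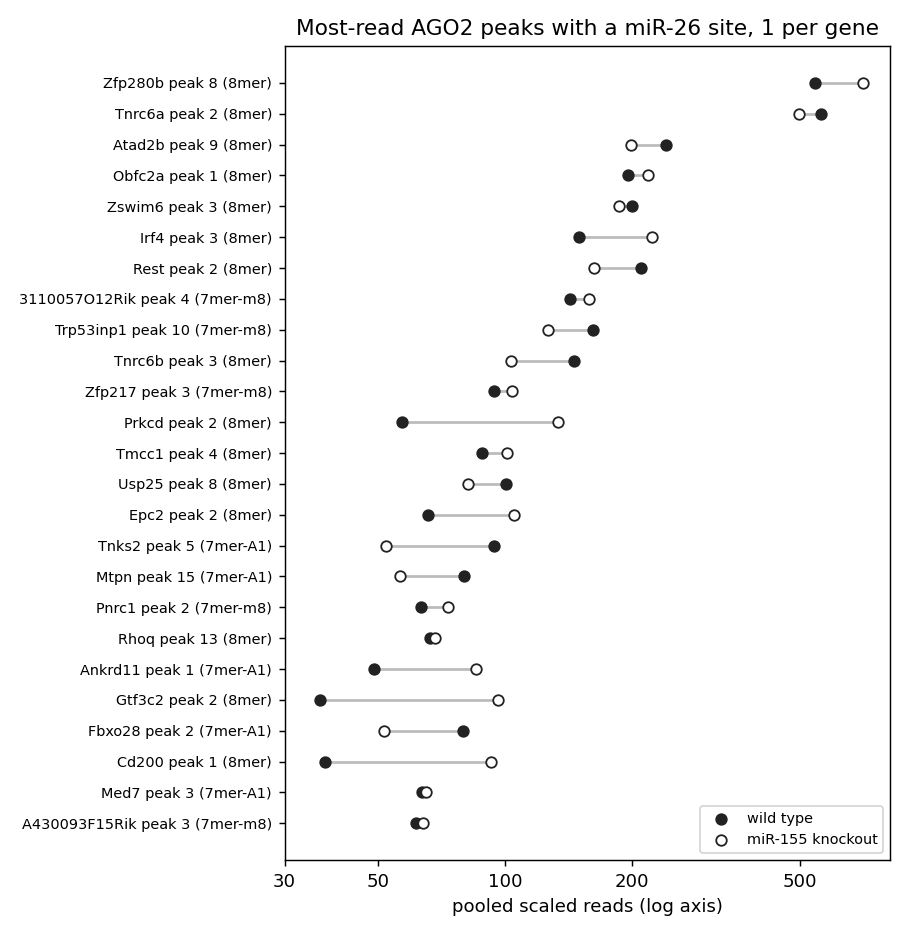
Pooled scaled reads in wild type (filled) and miR-155 knockout (open) at the 25 most-read peaks with a miR-26 site, 1 per gene, on a log axis, with 1 pooled value per genotype and no error. Zfp280b and Tnrc6a stand apart from the rest, and the genotype with more reads differs from gene to gene.

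The most-read 7mer peaks were smaller. Besides the 7mer-m8 peaks already named, Pnrc1, a nuclear receptor coactivator gene, held 63 wild-type and 73.1 knockout scaled reads, and A430093F15Rik held 61.4 and 64. The 7mer-A1 peak with most reads, in the tankyrase gene Tnks2, held 94.1 and 52.1. It was followed by Mtpn (79.9 and 56.2), the chromatin regulator gene Ankrd11 (48.8 and 85.4), the F-box gene Fbxo28 (79.3 and 51.7) and the Mediator subunit gene Med7 (63.5 and 64.8). The median total of both genotypes was 26.5 scaled reads for 8mer peaks, 20.8 for 7mer-m8 peaks and 17.8 for 7mer-A1 peaks, against 17.0 over all peaks. At least 100 scaled reads were held by 20 of 105 8mer peaks (19%), 9 of 84 7mer-m8 peaks (10.7%) and 7 of 108 7mer-A1 peaks (6.48%), against 9.59% of all peaks. No test was made of these differences between classes of peaks, which are not replicates.

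As a set, the peaks were 2.03% of all peaks and held 2.03% of the wild-type and 2.00% of the knockout scaled reads, 7525 and 7477. The 10 most-read peaks held 34.2% of these. The lowest total of both genotypes was 0.976 scaled reads, and 150 of 297 peaks (50.5%) held at least 20, against 45.1% of all peaks. The miR-26 peak was the most-read of its gene for 98 of the 297, of which 32 lay in genes with a single peak.

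Loss of miR-155 left these contacts without a called change. At an adjusted p below 0.05 (Benjamini-Hochberg over all 14634 p-values of the authors' deposited table), 0 of 297 peaks were lower in the knockout and 0 were higher, where 0.574% and 0.0273% of all peaks were called. Read against those low rates, the count of 0 does not set the peaks apart. At an unadjusted p below 0.05, 4 were lower (1.35%, against 2.72% of all peaks) and 2 were higher (0.673%, against 1.48%). The smallest adjusted p in the set was 0.466. Neither the labels nor the headers say how the authors' p-values treat the spread between libraries.

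The median log2 ratio of wild type over knockout, from the authors' deposited table, was 0.26 for the 297 peaks (quartiles -0.63 and 1.11) and 0.20 for all peaks (quartiles -0.61 and 1.33). It was above 0 for 166 peaks (55.9%, against 56.4% of all) and below 0 for 131 (44.1%, against 43.3%). It was above 1 for 84 peaks (28.3%, against 30.1%) and below -1 for 58 (19.5%, against 17.6%). No knockout reads were listed for 41 peaks (13.8%, against 16.6%) and no wild-type reads for 21 (7.07%, against 7.87%). The median of the 150 peaks that held 20 or more scaled reads was 0.04, against -0.00056 for all such peaks, and 116 (77.3%, against 76.0%) lay within a log2 ratio of 1 either way. Of the 36 peaks with at least 100 scaled reads, 32 (88.9%, against 90.0% of all such peaks) lay within that range.

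**Figure D2:**
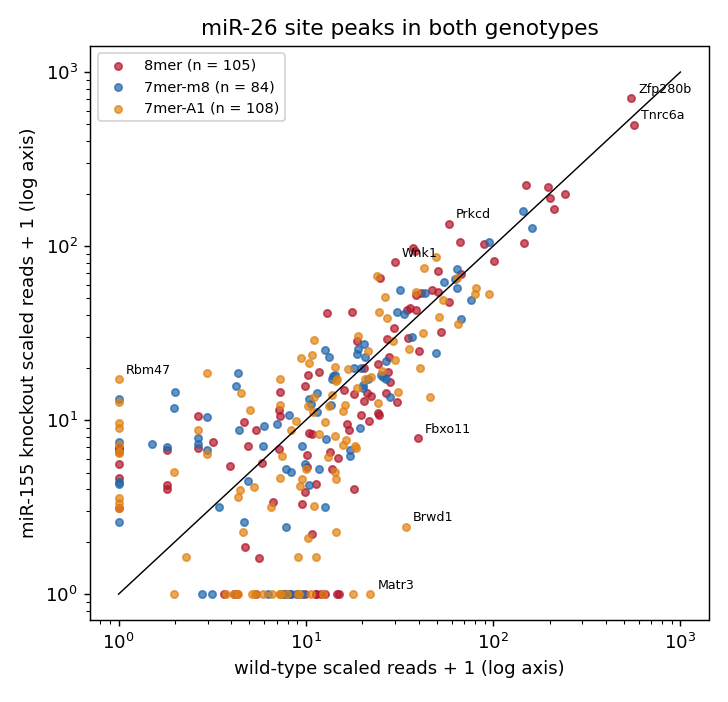
Scaled reads plus 1 in wild type and in miR-155 knockout for the 297 peaks, coloured by site class, both axes logarithmic; the line marks equal values. The most-read peaks lie along the line, and the points on the lower and left edges are peaks listed at 0 in a genotype.

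By class, the medians of the deposited log2 ratio in the authors' deposited table were 0.20 for 8mer, -0.04 for 7mer-m8 and 0.40 for 7mer-A1 peaks. The class with the longest match was thus not the one furthest from the median of all peaks, 0.20. For scale, the 265 peaks with a 7-nt or 8-nt site of miR-155 summed to 10320 wild-type and 1921 knockout scaled reads. In the families set beside miR-26, the median was 0.22 for 423 peaks with a miR-30 site, -0.04 for 372 with a miR-29 site and 0.02 for 519 with a miR-27 site. All these medians come from the same pooled libraries.

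**Figure D3:**
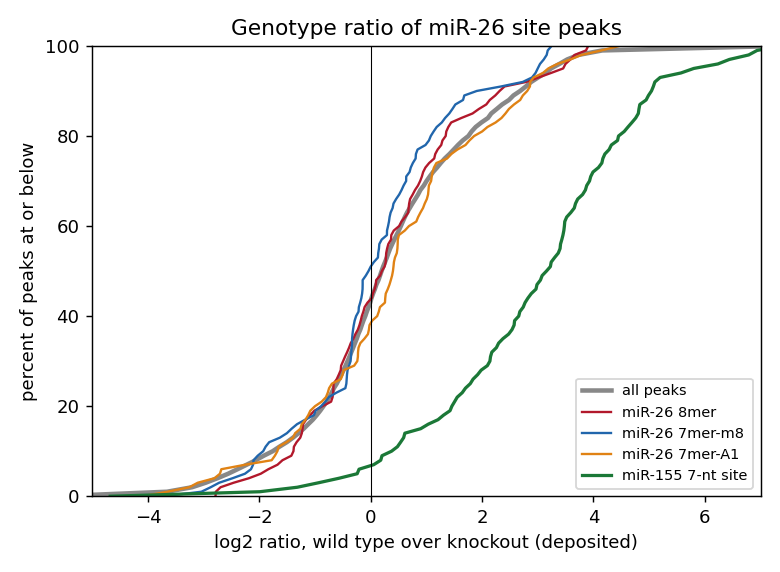
Percent of peaks (vertical axis) at or below each log2 ratio of wild type over knockout in the authors' deposited table (horizontal axis), for the miR-26 site classes, all peaks and peaks with a miR-155 site. The miR-26 curves run along that of all peaks, with medians of 0.20, -0.04 and 0.40, while the miR-155 curve lies to the right.

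Single peaks departed from equality without passing the adjusted threshold. Brwd1, a bromodomain gene, held 33.2 wild-type and 1.44 knockout scaled reads at peak 6 (log2 ratio 3.81, p = 0.0276 in the authors' deposited table). Matr3, which encodes an RNA-binding protein of the nuclear matrix, held 21.1 and was listed at 0 in the knockout, yet had p = 0.24 in the authors' deposited table. Fbxo11, a ubiquitin ligase subunit gene, held 38.6 and 6.87 at peak 7 (p = 0.0513 in the authors' deposited table). The 6-nt match to nt 2-7 of miR-155, which the rule did not bar, was present in 2 of the 297 peaks, in Tmem64 and Vbp1, which were named after their values were seen, with 19.6 and 16.2 reads and 17.1 and 13.1.

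Further peaks of at least 20 scaled reads leaned to wild type. Peak 3 of Epc2 held 45 wild-type and 12.6 knockout scaled reads, the reverse order of the neighbouring peak 2. Leprot, Scml4, Ppig and Acpl2 held 16.1, 17.6, 17.2 and 16.2 reads in wild type and 5.23, 5.93, 6.13 and 5.71 in the knockout. Besides Brwd1 and Fbxo11, the smallest p-values in this direction were those of 3 peaks with fewer reads: Ugdh, an enzyme of glucuronate synthesis, held 10.3 and 0.634 (p = 0.016 in the authors' deposited table), Arhgef10 peak 3 held 14 and 0, and Ssfa2 held 9.66 and 0.

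In the other direction, Wnk1, a kinase of ion transport, held 28.8 wild-type and 80 knockout scaled reads at peak 5 (log2 ratio -1.44, p = 0.0302 in the authors' deposited table). Rbm47, an RNA-binding protein gene, was listed at 0 in wild type and held 16.2 in the knockout, the smallest p of the direction (0.00645 in the authors' deposited table). Cd200, the ligand of an inhibitory receptor, held 37.5 and 92.4, and Gtf3c2, a subunit of an RNA polymerase III factor, held 36.3 and 96. Each of these 4 peaks had a log2 ratio below -1. Rufy2 held 23.1 and 66.7, the aminopeptidase gene Lnpep 23.9 and 64.2, the ubiquitin ligase gene Ubr3 11.9 and 40.5, and the SUMO ligase gene Pias2 3.33 and 17.6. Peak 2 of Zfp451 (6.3 and 13.5) and peak 1 of Mxi1, an antagonist of MYC (1.67 and 9.63), had the next p-values, 0.0591 and 0.0656 in the authors' deposited table.

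Several 3' UTRs carried the site in more than 1 peak: 16 genes had 2 or more of the peaks and 263 had 1. Irf4 had 3, spaced 167 and 350 nt apart, and they were read very unequally. Its 8mer held 149 and 223 scaled reads, its 7mer-m8 32.3 and 39.8, and its 7mer-A1, the least-read of the gene's 34 peaks, 0 and 2.32. Trp53inp1 also had 3, of which the 7mer-m8 at peak 10 held far more than the 7mer-A1 sites at peak 23 (10.1 and 28) and peak 38 (14.8 and 6.19). In Epc2 the sites of peaks 2 and 3 lay 36 nt apart, and the 8mer held more reads than the 7mer-A1.

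The longest match was not always the most read. In Dnmt3a, a DNA methyltransferase gene, the 7mer-A1 at peak 11 held 41.6 and 73.8 scaled reads and the 8mer at peak 8 held 1.67 and 5.93. In Larp1, an RNA-binding regulator of translation, the 7mer-A1 held 34.7 and 24.7 and the 8mer 20.7 and 8.85. Serbp1, an mRNA-binding protein gene, likewise had 53 and 48.1 at a 7mer-A1 and 21.3 and 12.7 at an 8mer. Rest, Obfc2a, Rhoq and Tnpo1 were read more at the 8mer, with Rhoq at 66.3 and 68.1 against 17.9 and 22.9. Arhgef10 held 19.7 and 22.1 at its 7mer-m8. The remaining genes with a pair of such peaks were Tet3, Usp3, Chd2, Stradb and Pik3c2a, all with under 25 scaled reads per genotype; the sites of Stradb lay 61 nt apart and those of Pik3c2a 88.

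Targets of miR-26 known from other cells were among the genes with a site in a peak. Of 36 listed genes 22 had a peak in the table and 11 had a miR-26 site in a peak. The site peaks were 12 of the list's 191 peaks (6.28%, against 2.03% of all peaks), a share that was not tested. None of the 12 passed the adjusted threshold, as none of the whole set did. The ratio was above 0 for 7 and below 0 for 5. The median in the authors' deposited table was 0.34, against 0.20 over all peaks. Ccnd2, a G1 cyclin gene, held 37.6 wild-type and 51.1 knockout scaled reads at peak 15. The deubiquitinase gene Usp15 held 37.6 and 42.2, 87.8% of its reads. Tet3, which oxidises methylcytosine, held 23.2 and 20.1 at peak 25, where the sequence carries the seed match more than once, and 13.5 and 15.8 at peak 10. Smad4, the common SMAD of TGF-beta signalling, held 27.2 and 12.6.

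The other site peaks of the list held fewer reads than that of Smad4. The survival factor gene Mcl1 held 18.6 wild-type and 8.03 knockout scaled reads and Chd1, a chromatin remodeller gene named after its values were seen, 10.7 and 7.35. Gsk3b held 7.24 wild-type scaled reads and was listed at 0 in the knockout, the autophagy kinase gene Ulk1 3.13 and 0, and the cyclin gene Ccne2 0.511 and 6.32. Ezh2, looked up after the values were seen, had 2 peaks that summed to 20.8 wild-type and 30.04 knockout scaled reads, with no miR-26 site in either. The host genes Ctdsp2 and Ctdspl had 1 peak each, Ctdsp2 with 4.60 and 6.45 reads and Ctdspl with 11.1 and 9.47, and neither held the 6-nt match. The list was drawn from general knowledge of the field, with earlier results of these data known.

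Among antigen receptor signalling and costimulation genes, 4 of the 23 with peaks had 1 site peak each (4 of 166 peaks, 2.41%, against 2.03% of all peaks). Ptpn22, a phosphatase that restrains T cell receptor signalling, held 49.6 wild-type and 70.6 knockout scaled reads, 89.5% of its reads. The costimulatory receptor gene Icos held 50.3 and 38, the adaptor gene Lcp2 13 and 16.9, and the ubiquitin ligase gene Cblb 13.3 and 19.2. Irf4 was the single gene of 26 on the list of T cell transcription factors, with 3 of the list's 261 peaks (1.15%). None of 27 cytokine receptor and JAK-STAT genes had such a peak, in 187 peaks.

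On the list of chromatin and DNA methylation genes 10 of 239 peaks (4.18%), in 8 of 25 genes, held the site, against 2.03% of all peaks. They included Mll3, a histone methyltransferase gene (53.8 and 61 scaled reads in wild type and knockout), and Suz12, a core Polycomb subunit (23.7 and 40.7). On the list of ubiquitin ligases and deubiquitinases it was 9 of 192 peaks (4.69%) in 8 of 27 genes, with Otud4 at 56.8 and 46.7. The microRNA pathway and RNA decay list had 5 of 253 peaks (1.98%) in 5 of 26 genes, among them Tob1, an antiproliferative partner of the deadenylase complex (40 and 52.9). These shares were not tested.

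The remaining lists had 5 sites or fewer. The apoptosis list had 5 in 200 peaks (2.5%, against 2.03% of all peaks), in 3 of 16 genes. Of these 5, 3 were in Trp53inp1 and 1 in Mcl1. The G1 to S list had 2 in 137 peaks (1.46%) of 21 genes, and the TGF-beta list 1 in 96 (1.04%) of 15 genes. The MAP kinase list had 2 in 152 (1.32%) of 29 genes. The last were the phosphatase genes Dusp4 (6.22 and 10.5) and Dusp5 (1.64 and 6.91). Because 0 of the 297 peaks passed the adjusted threshold, no site peak of any of the 14 lists could. The list of CTD phosphatase and elongation genes had none in 76 peaks.

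The site lay near the middle of the peak. The centre of the site was a median of 1 nt downstream of the centre of the peak (quartiles -7 and 9), and for 177 of 297 peaks (59.6%) it was within 10 nt. By class it was within 10 nt for 71.4% of 8mers, 54.8% of the 7mer-m8 sites and 51.9% of the 7mer-A1 sites. For miR-30, miR-29 and miR-27 site peaks the shares were 60.3, 75 and 60.3%.

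**Figure D4:**
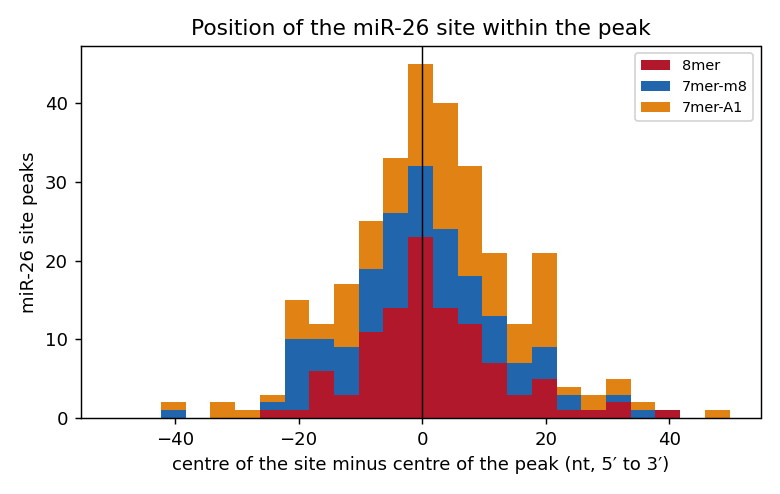
Distance in nt from the centre of the peak to the centre of the miR-26 site (horizontal axis, positive towards the 3' end) and number of peaks (vertical axis), stacked by site class. The counts are highest within 10 nt of the centre, which holds 177 of the 297 peaks. The rule itself limits the distance, as every site lies in the deposited sequence.

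Contiguous pairing, scored against miR-26a only, rarely went beyond nt 9. Of the 189 peaks matching nt 2-8, 56 (29.6%) also matched nt 9 of miR-26a, against 31.2% for miR-30, 28.8% for miR-29 and 13.7% for miR-27 at their own nt 9. Contiguous pairing reached nt 10 in 12 peaks, those of Prkcd and Rest among them, and nt 11 in 1, Pabpc1, named after the values were seen. The 4-nt complement of nt 13-16, TCCT on the transcript strand, occurred within the 22 nt upstream of the seed match in 9 of 170 peaks whose sequence reaches that far (5.29%). In the same window of the miR-30, miR-29 and miR-27 site peaks, whose microRNAs were not used to choose that motif, it occurred in 9.80, 13.2 and 7.83%. The first base after an 8mer was T in 43 of 104 sites and the first before it A in 42 of 105.

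Sites of other families were found in 86 of the 297 peaks (29.0%, against 33.6% of all peaks) when 15 further families were searched. The most frequent were miR-181, in 16 peaks, miR-27, in 13, and miR-23, in 12. Among all peaks without a miR-155 site, 260 held a miR-181 site, 519 a miR-27 site and 444 a miR-23 site. The Prkcd, Tmcc1 and Fbxo11 peaks held a miR-181 site, Irf4 peak 3 held miR-30 and miR-27 sites, and Tnrc6a peak 2 and Tnrc6c peak 3 a miR-23 site. In Prkcd and Fbxo11 a miR-181 match overlaps the last bases of the miR-26 site, so the 2 are not separate stretches. Such overlaps were counted as sites of another family. Peaks with a second family held a median of 28.8 scaled reads and those without 17.5, and which microRNA guided AGO2 to a shared peak cannot be told apart. The peaks started a median of 910 nt into the 3' UTR (quartiles 355 and 1895), against 880 over all peaks (345 and 1821), and were a median of 40 nt wide, against 39. Their sequences were 65.1% A or T, against 62.6% over all peaks.

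Most miR-26 seed matches in these 3' UTRs were outside any AGO2 peak. In the annotated 3' UTRs of 4005 genes with a peak that could be placed on GENCODE M21 transcripts, 1582 sites of 7 or 8 nt were found, and 280 of them (17.7%, exact 95% interval 15.8 to 19.7%) lay inside a deposited peak sequence. The share was 31.0% of 326 8mers (26 to 36.3%), 18.8% of 431 7mer-m8 sites (15.2 to 22.8%) and 11.9% of 825 7mer-A1 sites (9.75 to 14.3%). These intervals do not overlap; they treat sites as independent and cover counting error only. Of all 7-nt windows in these 3' UTRs 8.35% lay inside a peak. The order held with the longest annotated 3' UTR of each gene in place of the shortest one holding its peaks (28.2, 16.6 and 10.5%), a choice made after seeing the data.

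**Figure D5:**
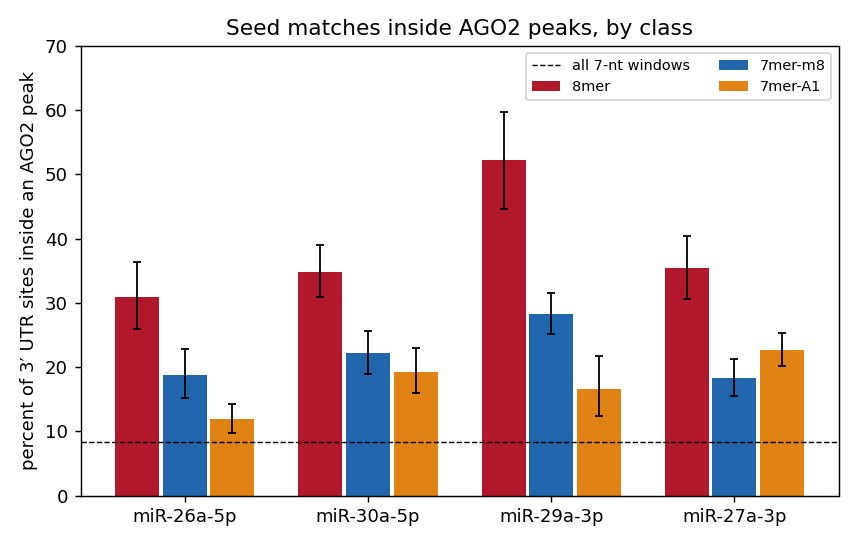
Percent of seed matches in annotated 3' UTRs that lie inside an AGO2 peak (vertical axis, from 0), by family and site class, with exact 95% binomial intervals; the dashed line is the share of all 7-nt windows, 8.35%. For miR-26 the share falls from 31.0% for 8mers to 11.9% for 7mer-A1 sites.

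In the families set beside it, 8mers were inside a peak in 34.9% of cases for miR-30, 52.2% for miR-29 and 35.4% for miR-27. Over all classes the shares were 25.5% for miR-30 (interval 23.4 to 27.6%), 29.3% for miR-29 (26.8 to 32.0%) and 23.5% for miR-27 (21.7 to 25.4%), each above the interval of miR-26. Of 16 other families, 13 had a higher share than miR-26 and 3 a lower one, with a range of 6.72% for miR-146 to 48.7% for miR-142.

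Sites inside peaks also lay closer to the stop codon. Their median distance from it was 811.5 nt, against 1316.5 nt for the 1302 sites outside peaks, and A or T made up a median of 63.3% of the 30 nt on each side, against 60.0%. In the 80 3' UTRs with sites both inside and outside peaks, 30 of 86 sites inside (34.9%) and 16 of 110 outside (14.5%) were 8mers. The median distance there was 1033.5 nt inside and 1737.5 nt outside, while the A or T content was 63.3 and 62.5%. In all, 258 of 1159 3' UTRs with a site had one in a peak, and 13 with 2 or more sites, Irf4, Trp53inp1, Tet3 and Epc2 among them, had all of them in peaks. Peaks of the same 3' UTR share their transcript, and no test was made of these differences. All peaks of the table started a median of 880 nt into the 3' UTR. The distance from the stop codon was not compared for other sequences inside and outside peaks.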

How the data were processed

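AGO2 HITS-CLIP was made from 24 libraries, 12 per genotype. Bowtie 0.12.7 and the mm9 genome are named in the submitters' processing notes; peak caller, read scaling and the test have no entry in the labels or headers. Per the file headers, the deposited log2 values are reads of each genotype, pooled, and their log2 ratio, and the deposited p-value is for differential binding. Scaled reads were taken as 2 to the power of the log2 value minus 1; this pseudocount of 1 understates changes of low peaks. Deposited p-values were Benjamini-Hochberg adjusted over all 14634 peaks (threshold 0.05). The sequence of each peak, with 6 nt added on each side, was searched for seed matches. The same 7-nt site rule was applied to 15 other families and to miR-155, with sequences from RefSeq; miR-150 was not searched.

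Peaks were placed by exact match to GENCODE M21 transcripts (GRCm38, not mm9): 14205 peaks (97.1%), 279 of the 297, 275 in an annotated 3' UTR. Sites were counted in the shortest annotated 3' UTR that held most of the gene's peaks. Genes were named by a rule: most reads, largest and lowest ratios among peaks of at least 20 scaled reads, smallest p, most reads per class, several site peaks, and up to 4 per list. Some items are not reported here. The members and the 14 gene lists were chosen with earlier results of these data known. Alternatives covered the threshold, the adjustment, read minimums, the pseudocount, centring, the region, the site definition, co-occurring sites and peaks per gene. Site search and adjustment were tested on simulated data. Python 3.11.15, NumPy 2.4.6, SciPy 1.17.1, pandas 2.3.3 and matplotlib 3.10.9 were used.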

Additional observations from a re-analysis of the deposited data

How the results depend on the processing

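The counts of 0 peaks called lower and 0 called higher held at adjusted p thresholds of 0.01 and 0.1, over peaks with at least 10 scaled reads, and with a Bonferroni adjustment. The median log2 ratio of 7mer-m8 peaks alone and of peaks with a second family was -0.04. That of the whole set, 0.26 against 0.20 over all peaks, kept its sign in every alternative, but the median of all peaks was itself above 0. It was 0.16 at 10 or more scaled reads and 0.044 at 20 or more, against -0.00056 for all peaks with 20 or more. With reads in both genotypes it was 0.13, against 0.067 for all such peaks, and 0.14 without the pseudocount. It was 0.061 centred on all peaks and 0.19 without flanks. It was 0.20 for 8mers, 0.10 for 8mers and 7mer-m8 sites, 0.25 with 6mers added, 0.30 without sites of other families, 0.26 with 1 peak per gene and, in an alternative added after seeing the data, 0.25 without peaks holding a miR-155 6mer. The share of reads in wild type and knockout was 1.63 and 1.57% without flanks, 1.56 and 1.59% for 8mers and 7mer-m8 sites, 2.82 and 2.76% with 6mers added, and 1.25 and 1.16% without sites of other families; each alternative changes the peaks counted. No paired analysis was possible because the table pools the libraries of a genotype, and for the same reason no library could be left out. Depth per library is unknown, so low peaks carry no interval.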
